A study of Mus musculus with 4 samples.

Results

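The clustered histone genes described here were the 61 genes whose symbols begin with Hist1h, Hist2h, Hist3h or Hist4h, that were listed in all 4 libraries and that held at least 20 UMIs over all libraries in cells passing the filters, of 27516 genes listed in all libraries. A UMI (unique molecular identifier) counts 1 captured RNA molecule. The genes comprised 6 of type H1, 16 of type H2A, 16 of type H2B, 12 of type H3 and 11 of type H4. Of 67 such symbols listed in all libraries, 6 fell under the minimum, with Hist1h4f (15 UMIs) and Hist1h2ao (11 UMIs) nearest below it and Hist2h4 (21 UMIs) and Hist2h3b (23 UMIs) nearest above.

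These genes encode the bulk histones of dividing cells. H2A, H2B, H3 and H4 form the core of the nucleosome, and H1 binds the DNA between nucleosomes. Cells transcribe them mainly in S phase, when newly copied DNA must be packaged, under the control of NPAT at the histone locus body. Their mRNAs usually end in a short stem-loop that binds SLBP, in place of a poly(A) tail, whereas replacement histones such as H3.3 come from polyadenylated mRNAs made throughout the cell cycle. Droplet 3′ kits prime on poly(A), so most RNA of this family is not captured by design, and the levels below are those of the captured part. Hist1h1t (H1t), Hist1h2aa (TH2A) and Hist1h2ba (TH2B) are variants known from the testis.

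Undifferentiated spermatogonia (A_undiff), the population that holds the stem cells of the male germline, were sorted as E-cadherin+ CD49f+ c-KIT- cells from the testes of adult WT C57BL/6J mice aged 6 to 8 weeks. The control group (CTRL) was untreated, and the BU group received a single dose of 10 mg/kg busulfan, an alkylating agent that depletes spermatogonia, and was taken at day 10. Single-cell RNA-seq was made in 2 experiments, each with 1 CTRL and 1 BU library from cells pooled from 3 mice per group, so that n = 2 libraries per group. Per the labels, CTRL 1 and BU 1 were made with version 2 of the kit and CTRL 2 and BU 2 with version 3.1, each pair in a sequencing lane of its own. Mice, sort, lane and kit cannot be told apart between the experiments.

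In GRCm38 (GENCODE M21), 49 of the genes lay on chromosome 13 between 21715763 and 23934851 (all Hist1), 9 on chromosome 3 between 96219865 and 96270132 (all Hist2), 2 on chromosome 11 (Hist3) and Hist4h4 on chromosome 6. Of the 61 genes, 57 had a single exon in every annotated transcript. A stem-loop after the stop codon was found in the annotated transcripts of 41 genes, 24 to 61 bases behind the coding end (median 34). It is shown because it marks the mRNA form that a poly(A)-primed kit should miss. Capitals mark the arms that pair with each other:

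most common form, 23 genes of types H1, H2A, H2B and H3: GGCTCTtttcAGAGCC

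second form, 6 genes including Hist1h1t and Hist1h3c: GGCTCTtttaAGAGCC

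H4 form, 5 genes including Hist1h4d: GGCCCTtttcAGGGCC

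H4 form of Hist1h4i and Hist2h4: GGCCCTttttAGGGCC

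form of Hist1h4a alone: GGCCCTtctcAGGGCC

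The annotated ends differed between the genes. In 15 genes every coding transcript ended within 50 bases of the stem-loop. A class of 26 held the genes with a transcript that ran on past it, and Hist1h2bp. The Hist1h2bp transcript with the stem-loop ended 38 bases behind it, and no stem-loop was found in its other coding transcript. In 20 genes no stem-loop was found in the annotated transcript. Some of these are annotated only to the coding end, such as Hist1h4k (312 bases), so that a stem-loop could not be found there. Copies also resemble each other. A median of 30.0% of the 115-base windows of a gene's transcripts occurred in another clustered histone gene, with 19 genes over 50% and 12 genes at 0, so reads can be lost or shared among the first group (Hist1h2ap 91.8%, Hist1h2an 82.4%) and not within Hist1h1a, Hist1h1b, Hist1h2aa or Hist1h4d. In addition, 7 genes overlapped another gene on the same strand, among them Hist1h1e (with Hist1h2be), Hist3h2a (with Trim17) and Hist2h2bb (with Gm42743), and their counts are uncertain for that reason.

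Promoters were read from RefSeq (GRCm38.p6) for 55 of the 61 genes, as 250 bases before and 50 after the start. On either strand, CCAAT occurred in 48 of the 55 windows (87.3%) and in 37.4% of all 32851 promoter windows, TATAAA in 32 (58.2%) and in 13.6% of all, and the octamer ATTTGCAT in 13 (23.6%) and in 1.74% of all. The octamer was present in 7 of 16 H2A and 6 of 14 H2B windows and in none of the 5 H1, 10 H3 and 10 H4 windows, and CCAAT was present in every H1, H2A, H2B and H3 window but in 3 of 10 H4 windows. None of these 3 motifs contains another. The following 4 promoter stretches, from 170 to 11 bases before the start, show these layouts for genes that the results turn on, with the motifs in capitals:

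Hist1h1a, chr13:23763498-23763657, plus strand: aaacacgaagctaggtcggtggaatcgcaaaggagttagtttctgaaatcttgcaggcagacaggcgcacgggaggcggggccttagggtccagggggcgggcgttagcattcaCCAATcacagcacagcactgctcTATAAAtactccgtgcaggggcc

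Hist1h1e, chr13:23622569-23622728, minus strand: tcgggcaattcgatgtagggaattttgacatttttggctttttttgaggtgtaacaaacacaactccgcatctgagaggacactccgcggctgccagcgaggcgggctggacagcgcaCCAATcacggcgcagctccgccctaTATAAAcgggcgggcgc

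Hist1h2ba, chr13:23934167-23934326, minus strand: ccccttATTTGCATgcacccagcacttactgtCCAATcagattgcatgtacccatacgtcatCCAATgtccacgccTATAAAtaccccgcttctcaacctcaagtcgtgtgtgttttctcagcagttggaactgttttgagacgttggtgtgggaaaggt

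Hist1h4i, chr13:22041373-22041532, minus strand: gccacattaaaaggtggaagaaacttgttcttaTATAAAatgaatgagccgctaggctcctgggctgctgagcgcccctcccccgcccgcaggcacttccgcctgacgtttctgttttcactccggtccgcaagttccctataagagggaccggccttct

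The RefSeq starts of Hist1h2ba and Hist1h2aa lay 281 bases apart on opposite strands, and the windows of both genes hold this octamer. The start given for Hist1h2ba is its start codon, so its stretch above is counted from the coding start. A motif match is a description of letters and not a site.

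The filters on cells left 1120 to 3101 cells per library and between 21012815 and 52648297 UMIs in all. The median UMIs per cell were 8066 (CTRL 1), 9858 (BU 1), 30931 (CTRL 2) and 34177 (BU 2), so depth cannot be told apart from experiment either. CTRL 2 and BU 2 shared 70 cell barcodes, at which the larger copy held a median of 145614 UMIs and the smaller 2049, and CTRL 1 and BU 1 shared 7, so results are also given without these cells. Markers of undifferentiated spermatogonia (7 genes, including Zbtb16, Sall4 and Gfra1) summed to 676 to 878 CPM (UMIs of the gene per 1000000 UMIs) with none at 0 in any library. Spermatid markers (7 genes, including Prm1 and Tnp1) summed to 2946 (CTRL 1), 1050 (BU 1), 17216 (CTRL 2) and 9208 (BU 2) CPM, and markers of somatic testis cells (7 genes) to 16.3, 22.6, 147 and 115 CPM in the same order. Kit stood at 1.52 (CTRL 1), 26.0 (BU 1), 6.96 (CTRL 2) and 30.0 (BU 2) CPM after the c-KIT- gate.

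The library CTRL 1 stood apart for the histone genes. Among genes with at least 2 CPM in the other 3 libraries, 63 of 11767 (0.535%) were at least 4-fold lower in CTRL 1 than in each of the others, and 13 of the 25 clustered histone genes in that range were among them. The same count was 0 of 13, 14 and 13 histone genes for BU 1, CTRL 2 and BU 2, with 29, 0 and 0 genes of any kind. Hist1h1a, Hist1h1b, Hist1h1d, Hist1h1e, Hist1h2aa, Hist1h2ab, Hist1h2ae, Hist1h2ak, Hist1h2bm, Hist1h3c, Hist1h4c, Hist1h4d and Hist2h2ac were low in this way. These thresholds were chosen after the values were seen. CTRL 1 was the lowest of the 4 libraries for 48 of the 61 genes (42 of the 54 that passed the filter on low counts, against 29.9% of all 17355 tested genes). The comparisons of BU with CTRL, of the experiments, of S-high with S-low cells and of Gfra1+ with Gfra1-negative cells are therefore also given without CTRL 1, which was not done for the fits of BU against CTRL with the replicate block, the interaction, the classes by transcript end and the lists of other genes. What sets this library apart was not tested.

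Summed over all 61 genes, CTRL 1 stood at 102 CPM, BU 1 at 517 CPM, CTRL 2 at 521 CPM and BU 2 at 812 CPM. The level of H1 was 16.2 (CTRL 1), 221 (BU 1), 133 (CTRL 2) and 206 CPM (BU 2), that of H2A 34.6, 144, 140 and 302 CPM, and that of H4 21.4, 98.3, 139 and 150 CPM in the same order. BU 1 and CTRL 2 lay near each other in H2A, and CTRL 1 was the lowest library in each of these types. H2B stood at 21.6 (CTRL 1), 35.4 (BU 1), 64.5 (CTRL 2) and 96.3 CPM (BU 2) and H3 at 8.26, 18.2, 45.0 and 57.6 CPM, and in both types, as in H4, the experiments did not overlap.

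**Figure D1:**
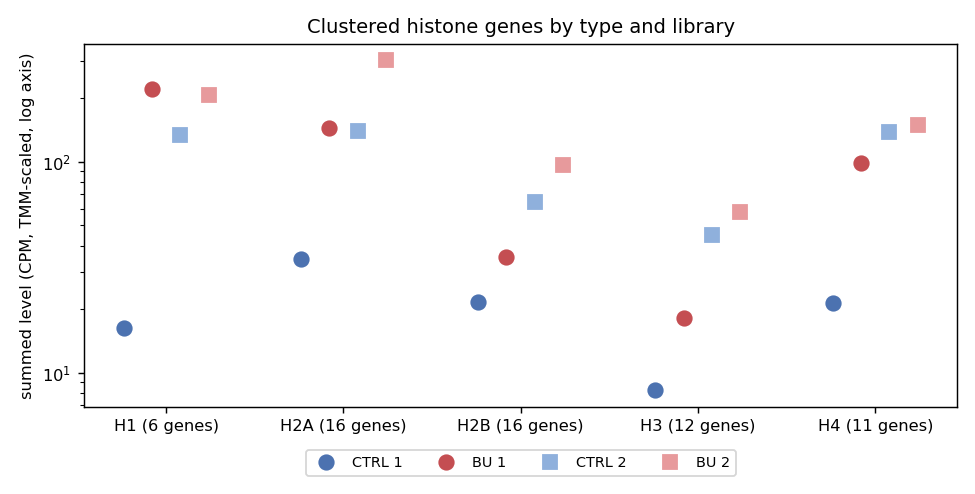
Summed level of each histone type in each library, in TMM-scaled CPM on a log axis, with 1 point per library (circles, experiment 1; squares, experiment 2). CTRL 1 is the lowest point in every type, and for H2B, H3 and H4 both libraries of experiment 2 lie above both of experiment 1.

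Single genes differed in how they followed these sums. Hist1h1a stood at 3.35 (CTRL 1), 102 (BU 1), 73.1 (CTRL 2) and 115 CPM (BU 2). Hist1h1e stood at 1.64, 55.9, 17.9 and 26.4 CPM in the same order, and both H1 genes were higher in both BU libraries than in both CTRL libraries. Hist1h1t, the H1 variant of spermatocytes, stood at 0.190, 0.807, 3.1 and 4.06 CPM, with the libraries separated by experiment and not by treatment.

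Among H2A genes, Hist1h2ap stood at 19.8 (CTRL 1), 20.5 (BU 1), 54.6 (CTRL 2) and 174 CPM (BU 2), so that the libraries of experiment 1 were level and BU 2 stood above CTRL 2. The testis variant Hist1h2aa stood at 0.381, 34.6, 24.7 and 51.1 CPM, and its divergent neighbour Hist1h2ba, the H2B variant, at 0.0381, 0.949, 2.58 and 4.05 CPM. Both were lowest in CTRL 1, where Hist1h2ba held 1 UMI and Hist1h2aa held 10 UMIs.

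Hist1h2bp stood at 7.54 (CTRL 1), 3.23 (BU 1), 18.5 (CTRL 2) and 25.4 CPM (BU 2), and BU 1 was its lowest library. Hist1h2bj stood at 4.15, 7.93, 8.21 and 14.0 CPM. For H3, Hist1h3c stood at 1.29, 8.07, 18.2 and 29.3 CPM and Hist1h3a at 3.58, 4.32, 7.75 and 10.1 CPM, both in the order CTRL 1, BU 1, CTRL 2, BU 2. For H4, Hist1h4d stood at 2.86, 67.3, 93.7 and 80.3 CPM and Hist1h4i at 10.1, 18.7, 8.31 and 25.9 CPM, so that the first set CTRL 1 apart from the other libraries and the second set BU apart from CTRL. Of the remaining genes, 15 stayed under 1 CPM in every library, and 18 of all 61 reached 10 CPM in some library. At 0 UMIs were 4 genes in CTRL 1 and 1 gene in BU 1.

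**Figure D2:**
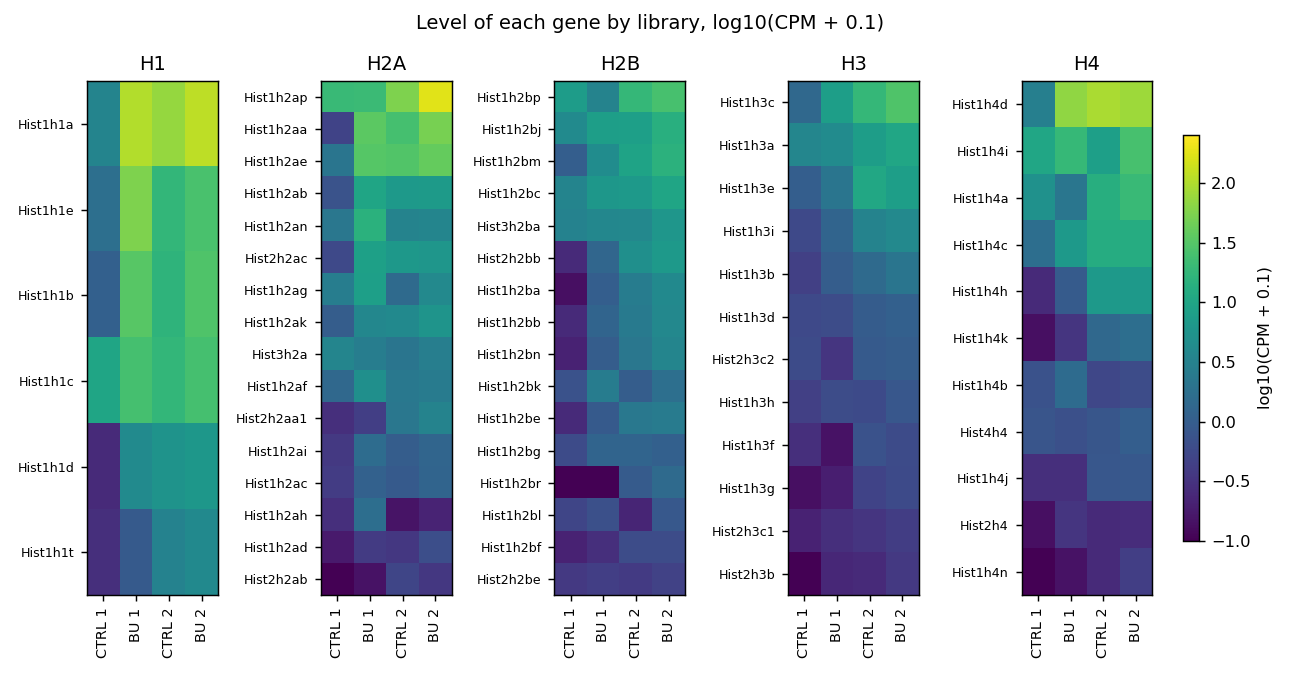
Level of each of the 61 genes in each library as log10(CPM + 0.1), grouped by type and ordered by mean level. The CTRL 1 column is the darkest for most genes of every type, with Hist1h2ap, Hist1h4i and Hist1h1c among those that remain at 9 CPM or above there.

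To ask how the regenerating cells differ from untreated cells, BU was compared with CTRL over UMIs summed per library, with levels in CPM after TMM scaling of the libraries. Nothing in the labels separates the mice within a pool, so p-values do not measure the spread between single mice. The permutation p-values concern these libraries only. The fits of edgeR and DESeq2 also draw on a spread estimated over all genes. Their p-values and SE therefore do not measure a gene's own spread between these libraries alone. The SE of edgeR were derived from the fold change and its test statistic. The summed level of all 61 genes was 312 ± 297 CPM in CTRL and 665 ± 209 CPM in BU (SD, n = 2), and the groups overlapped (two-sided exact permutation test, p = 0.67). This test leaves out the pairing of libraries by experiment, so the spread it measures includes that between the experiments. The ratio of the means was 2.86 for H1, 2.56 for H2A, 1.53 for H2B, 1.42 for H3 and 1.55 for H4, and H1 and H2A did not overlap between the groups (exact permutation test, p = 0.33 for each, the smallest that 4 libraries allow). The summed level of 39 S phase genes was also higher in BU, by 1.61 times in experiment 1 and 1.43 times in experiment 2, and its part in the histone levels was not tested.

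The direction was shared by both experiments and the size was not. In experiment 1, BU 1 held 5.07 times the summed level of CTRL 1, and in experiment 2, BU 2 held 1.56 times that of CTRL 2. For H1 these ratios were 13.6 and 1.55, for H4 4.60 and 1.08, for H2A 4.17 and 2.16, for H3 2.20 and 1.28 and for H2B 1.64 and 1.49. Of the 61 genes, 53 were higher in BU in experiment 1 and 55 in experiment 2, against 48.0% and 56.3% of all tested genes, and all 6 H1 genes were higher in BU in both. With 0.5 CPM added to each level, the median ratio over the genes was 1.79 in experiment 1 (range 0.454 to 39.8) and 1.27 in experiment 2 (range 0.749 to 3.18). Without CTRL 1 the ratio of BU to the remaining CTRL library was 1.28 for all genes, 1.60 for H1 and for H2A, 1.02 for H2B, 0.842 for H3 and 0.896 for H4. These ratios set BU 1, of experiment 1, against a CTRL library of experiment 2. Treatment and experiment are likewise unbalanced wherever a comparison of BU with CTRL or of the experiments leaves out a library.

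**Figure D3:**
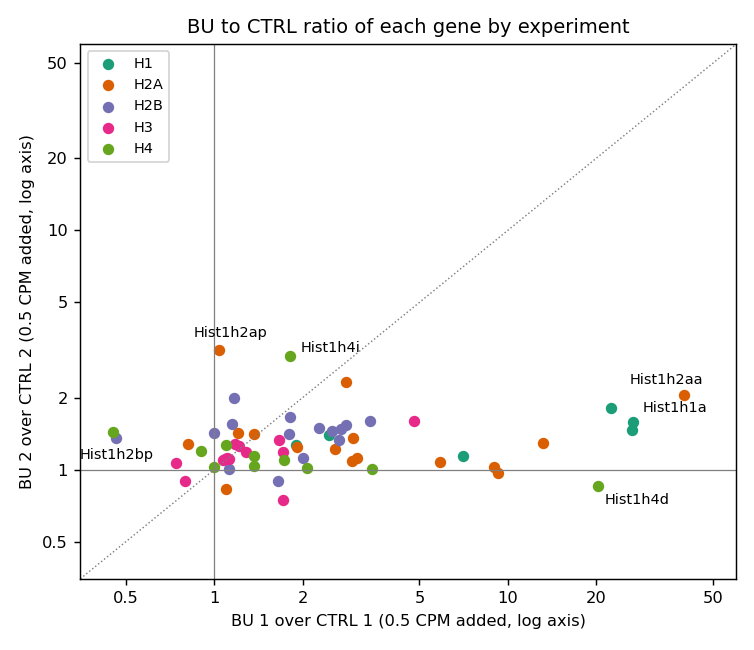
Ratio of BU to CTRL for each of the 61 genes in experiment 1 (x axis) and in experiment 2 (y axis), with 0.5 CPM added to each level, both on log axes; colours give the type and the dotted line marks equal ratios. Ratios run from 0.454 to 39.8 in experiment 1 and from 0.749 to 3.18 in experiment 2, with Hist1h1a, Hist1h2aa and Hist1h4d far to the right.

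No gene passed the test in the fit with condition as the only term (edgeR quasi-likelihood test, Benjamini-Hochberg adjusted p under 0.05), in which 54 of the 61 were tested and 0.0% of all genes passed in either direction. At an unadjusted p under 0.05 stood 1 of the 54, Hist1h4i (log2 fold change 1.28 ± 0.36 SE, adjusted p = 0.87), and 926 of 17355 genes of any kind. DESeq2 called 0 of them, against 0.184% of all genes higher and 0.507% lower. It gave 3 of them an unadjusted p under 0.05, and 871 genes of any kind. The median log2 fold change was 0.76 over the 54 genes and 0.07 over all tested genes, it was 0.11 without CTRL 1 and 2.295 without CTRL 2. Without BU 2 it was 0.02, and 1 gene (Hist1h1e) was called higher, against 0.0458% of all genes higher and 0.503% lower.

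With the experiment as a replicate block, 0 of the 54 were called, against 0.64% of all tested genes called higher and 0.847% called lower. At an unadjusted p under 0.05 stood 16 of the 54, all higher in BU, and 3332 of 17355 genes of any kind in either direction. The smallest adjusted p were those of Hist1h2ag (log2 fold change 1.59 ± 0.32, adjusted p = 0.065) and Hist1h4i (1.28 ± 0.30, adjusted p = 0.086). Hist1h1a had 2.69 ± 0.98 (adjusted p = 0.20), Hist1h2aa 3.21 ± 1.15 (adjusted p = 0.20) and Hist1h4d 2.04 ± 1.12 (adjusted p = 0.37) in this fit. Calls depended on the settings. DESeq2 with the block called 2 genes higher in BU (Hist1h3c and Hist1h4i), against 1.45% of all genes higher and 2.73% lower. The block without the filter on low counts called 7 of 61 (all genes 2.07% and 2.38%), the block on cells thinned to 5000 UMIs called 11 of 37 (2.31% and 4.38%), and the block without the cells at shared barcodes called 14 of 53 (3.21% and 5.94%), all higher in BU. Each of these settings thus also called more genes of any kind than the block alone. These 14, named after their values were seen, were Hist1h1a, Hist1h1b, Hist1h1d, Hist1h1e, Hist1h2aa, Hist1h2ab, Hist1h2ae, Hist1h2ag, Hist1h2an, Hist1h2bm, Hist1h3c, Hist1h4d, Hist1h4i and Hist2h2ac. In that fit Hist1h1a had a log2 fold change of 2.59 ± 0.47 (adjusted p = 1.6e-04) and Hist1h2aa one of 3.16 ± 0.54 (adjusted p = 6.1e-05), and the levels above place most of both differences in experiment 1. Both BU libraries were above both CTRL libraries for 17 of the 54 tested genes (19 of all 61), against 19.5% of all tested genes, and below them for 0, against 14.4%.

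Gfra1 encodes the GDNF receptor that marks the stem cell fraction, so BU was also compared with CTRL within Gfra1+ cells (585, 865, 214 and 528 cells in CTRL 1, BU 1, CTRL 2 and BU 2). The Gfra1+ threshold is a share of UMIs, so a single Gfra1 UMI can pass in a shallow cell and not in a deep one. Cells of experiment 1 were shallower at the median, so the class can be looser there. The summed histone level in Gfra1+ cells was 99.4 (CTRL 1), 513 (BU 1), 753 (CTRL 2) and 803 CPM (BU 2), so that CTRL 2 lay above BU 1. BU was 5.14 times CTRL in experiment 1 and 1.07 times CTRL in experiment 2, and 51 of the 61 genes were higher in BU in the former and 31 in the latter. The share of all genes higher in BU within Gfra1+ cells was not counted. Hist1h1a stood at 6.10, 80.5, 121 and 109 CPM in the same order, and Hist1h4d at 2.03, 72.1, 139 and 99.97 CPM, both with CTRL 2 above BU 2. Hist1h4i stood at 10.97, 19.0, 12.6 and 28.04 CPM, with both BU libraries above both CTRL libraries. No gene passed the test among the 41 tested with condition alone, where 0.0% of all genes passed in either direction. None passed with the replicate block (all genes 0.0367% higher and 0.0293% lower), or in DESeq2 with or without the block. At an unadjusted p under 0.05 stood 2 with condition alone and 6 with the block, against 583 and 1607 of all 13633 genes. In DESeq2 these were 4 with the block and 2 without it, against 741 and 442. The block without the filter on low counts called 11 of 61 higher, against 1.61% of all genes higher and 1.12% lower. The median log2 fold change over the tested genes was 0.36 with all libraries, -0.35 without CTRL 1, 0.65 without BU 1, 2.59 without CTRL 2 (25 of 45 at an unadjusted p under 0.05) and -0.24 without BU 2, with 0 histone genes called in each.

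For H2B, H3 and H4 the ratio between the experiments was larger than that between the treatments, in a comparison of the same 4 libraries. Experiment 2 held 2.82 times the H2B level of experiment 1 (28.5 ± 9.77 and 80.4 ± 22.5 CPM, SD, n = 2) and 3.88 times the H3 level (13.2 ± 7.01 and 51.3 ± 8.90 CPM), and neither type overlapped between the experiments (exact permutation test, p = 0.33 for each, the smallest possible). The H1 level did overlap, at 119 ± 145 and 170 ± 51.6 CPM (exact permutation test, p = 1.00), and its ratio was 1.43 with CTRL 1 and 0.769 without it. The ratio was 2.47 for H2A, which overlapped between the experiments (exact permutation test, p = 0.67), and 2.41 for H4, which did not (p = 0.33). Without CTRL 1 the ratios were 1.53 for H2A, 2.27 for H2B, 2.82 for H3 and 1.47 for H4.

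With condition as a covariate, 20 of the 54 tested genes rose in experiment 2 and 1 fell (edgeR, adjusted p under 0.05), against 18.2% and 5.06% of all tested genes. The 20 were 1 H1, 2 H2A, 8 H2B, 4 H3 and 5 H4 genes. Hist1h4h rose from 0.152 (CTRL 1) and 0.854 (BU 1) to 6.78 (CTRL 2) and 6.89 CPM (BU 2), a log2 fold change of 3.89 ± 0.58 (SE, adjusted p = 0.0057). Hist1h4k rose by 3.44 ± 0.66 (adjusted p = 0.012) and Hist2h2aa1 by 3.30 ± 0.47 (adjusted p = 0.0051) on the log2 scale. Hist2h2bb rose by 3.27 ± 0.59 (adjusted p = 0.0097), from 4 and 26 UMIs to 187 and 337. Hist1h2br was at 0 UMIs in both libraries of experiment 1 and held 106 UMIs in experiment 2, at least 18.5-fold higher than a floor of 3 UMIs over the group at 0. Other clustered histone genes shared 91.0% of the windows of Hist1h2br and 87.7% of those of Hist2h2aa1. Reads of these 2 genes can therefore be lost or shared, and the gene models differed between the experiments. The testis variants Hist1h1t (2.94 ± 0.51, adjusted p = 0.0086) and Hist1h2ba (3.07 ± 0.71, adjusted p = 0.022) were among the 20. Hist1h2ag fell by 1.08 ± 0.32 on the log2 scale (adjusted p = 0.0495), from 2.63 and 8.31 to 1.38 and 3.87 CPM.

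These calls were fewer with experiment as the only term (4 and 0, against 6.01% and 0.622% of all genes). The fits that left out a library also had no term for condition, so their calls compare with these 4 and 0. Without CTRL 1 they were 7 higher and 3 lower (all genes 11.3% and 1.78%), and without BU 1 they were 24 and 0 (6.98% and 3.78%). Without CTRL 2 they were 1 and 0 (all genes 0.486% and 0.154%) and without BU 2 they were 0 and 0 (0.761% and 0.177%, with 12 histone genes at an unadjusted p under 0.05), so that calls fell for all genes where experiment 2 was left with 1 library. The median log2 change of the tested histone genes was 1.67 with all libraries and condition as a covariate. With experiment as the only term it was 1.09 with all libraries, 0.42 without CTRL 1, 2.16 without BU 1, 1.24 without CTRL 2 and 0.91 without BU 2. Without the cells at shared barcodes the calls were 28 and 1 (all genes 14.7% and 5.67%). The files of experiment 2 listed 31053 genes and those of experiment 1 27998, so the gene models used for counting differed as well. Spermatid markers rose in experiment 2 for 7 of 7 genes and somatic markers for 4 of 6 tested, while 1 of 39 S phase genes rose and 5 fell. With spermatid, somatic and Kit-high cells left out, 13 histone genes rose and 0 fell, against 8.28% and 3.14% of all genes.

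To ask how these genes follow S phase, cells of each library were ranked by the share of their UMIs in 39 S phase genes (including Mcm5, Pcna and Rrm2, and no histone gene) and cut into 3 equal classes, of which the upper (S-high) was compared with the lower (S-low) with the library as a replicate block. The summed histone level was higher in S-high cells of every library, namely 139 against 78.3 CPM for CTRL 1, 756 against 224 CPM for BU 1, 966 against 311 CPM for CTRL 2 and 1355 against 396 CPM for BU 2. With 0.5 CPM added, the ratios were 1.77 in CTRL 1 and 3.1 to 3.42 in the other libraries. H1 was 1.96 times as high in CTRL 1 and 4.19 to 5.62 times elsewhere, and H2A 4.11 times in CTRL 1 and 5.22 to 9.92 times elsewhere. The H2B sum was lower in S-high cells of every library, at 0.817 (CTRL 1), 0.949 (BU 1), 0.906 (CTRL 2) and 0.734 (BU 2) times the level of S-low cells, and this rested on Hist1h2bp. Without that gene, an alternative chosen after the values were seen, the H2B ratios were 1.86, 1.11, 2.56 and 2.25 in the same order. Of the 16 H2B genes, 10 were higher in S-high cells of all 4 libraries and 2 were lower in all.

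Of 33 genes tested, 21 rose in S-high cells and 3 fell (edgeR with library block, adjusted p under 0.05), against 5.36% and 12.7% of all 14172 tested genes. The filter on low counts can favour genes that are high in 1 class. Without it, 34 of all 61 rose and 6 fell, against 3.23% and 18.5% of all genes. Of all 61 genes, 36 were higher in S-high cells of all 4 libraries and 4 were lower in all. The share of all genes that did so was not counted, for this count or for that of the H2B genes above. The genes that rose were 5 of 6 H1, 8 of 11 tested H2A, 2 of 7 H2B, 3 of 4 H3 and 3 of 5 H4 genes. The largest rises were those of Hist1h2an (log2 fold change 3.65 ± 0.42, adjusted p = 0.012), Hist1h2aa (3.55 ± 0.30, adjusted p = 0.010), Hist1h1b (3.38 ± 0.27, adjusted p = 0.010), Hist1h3c (3.36 ± 0.65, adjusted p = 0.023) and Hist1h2ap (3.28 ± 0.31, adjusted p = 0.011).

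Hist1h2ap, an H2A gene with most of its sequence shared with other copies, stood at 40.0 and 6.64 CPM in S-high and S-low cells of CTRL 1, 34.3 and 4.73 CPM in those of BU 1, 119 and 13.7 CPM in those of CTRL 2 and 350 and 20.7 CPM in those of BU 2. Hist1h1a stood at 5.71 and 1.55 CPM in those of CTRL 1, 153 and 30.5 CPM in those of BU 1, 142 and 25.4 CPM in those of CTRL 2 and 217 and 21.3 CPM in those of BU 2. In each library the S-high level lay above the S-low level of both genes, also in CTRL 1. The S-high cells of CTRL 1 held less Hist1h1a than the S-low cells of every other library. Classes are relative to each library, and S-low cells of BU 1 reached a higher S phase share (0.397%) than the lowest S-high cells of CTRL 1 (0.324%).

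The genes that fell were Hist1h2bp (log2 fold change -3.50 ± 0.51, adjusted p = 0.015), Hist1h4a (-2.27 ± 0.25, adjusted p = 0.012) and Hist3h2a (-2.16 ± 0.39, adjusted p = 0.019). Hist1h2bp stood at 2.26 and 15.5 CPM in S-high and S-low cells of CTRL 1, 1.36 and 5.81 CPM in those of BU 1, 4.65 and 65.4 CPM in those of CTRL 2 and 2.87 and 98.6 CPM in those of BU 2. Markers of other cells moved the same way: 7 of 7 spermatid markers and 4 of 4 tested somatic markers fell, spermatid markers summed to 422 to 1035 CPM in S-high and to 2092 to 69285 CPM in S-low cells, and somatic markers to 4.48 to 19.1 and 26.9 to 568 CPM. With spermatid, somatic and Kit-high cells left out, 22 genes rose (all genes 6.54%), 20 of them among the 21, and the same 3 fell (all genes 8.63%), with log2 fold changes of -3.24 (Hist1h2bp), -1.73 (Hist1h4a) and -1.39 (Hist3h2a).

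**Figure D4:**
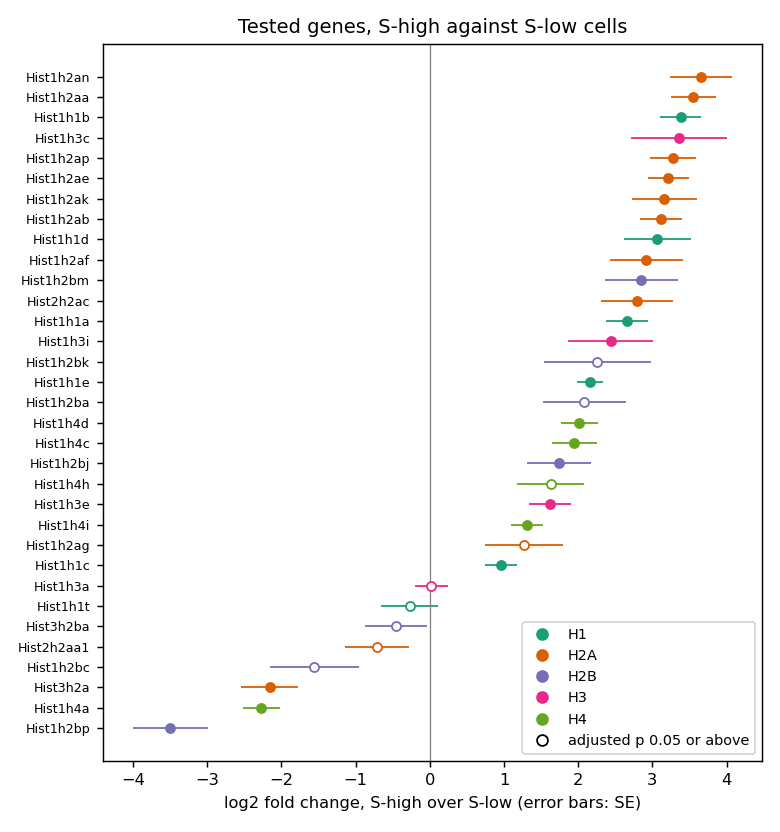
Log2 fold change of S-high over S-low cells for the 33 tested genes (points, edgeR estimate; bars, SE; colours, type; open points, adjusted p of 0.05 or above). To the right of 0, 21 genes are filled, and Hist3h2a, Hist1h4a and Hist1h2bp are filled to the left.

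The calls without CTRL 1 were 21 higher (16 of them among the 21) and 4 lower, against 0.882% and 7.28% of all genes, and without BU 1 they were 24 and 4 (7.26% and 16.4%). Without BU 2 they were 11 and 2 (all genes 0.527% and 5.37%). Without CTRL 2 no histone gene and 0.0% of all genes were called in either direction. At an unadjusted p under 0.05 stood 26 of 30 histone genes there and 3059 of 13789 genes of any kind. The median log2 fold change of the tested histone genes without CTRL 2 was 1.99, and 2.08 with all libraries. Without the cells at shared barcodes the calls were 22 and 3 (10.4% and 14.5%). With the upper class of a ranking by 52 G2M genes left out, 6 rose and 2 fell of 26 tested (all genes 1.62% and 8.96%), with a median of 1.45. Without the library block 6 rose and 2 fell of 33 (0.938% and 11.4%), with a median of 2.01.

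In finer classes the histone level was highest in the highest S class of every library, at a different height in each. In 5 equal classes by S share, the summed histone CPM of the lowest and the highest class were 91.1 and 168 for CTRL 1, 225 and 802 for BU 1, 234 and 1432 for CTRL 2 and 361 and 1793 for BU 2. The rise was steady only in BU 1. The second class lay below the lowest in CTRL 1 (67.6 CPM) and BU 2 (297 CPM), and in CTRL 2 the third (256 CPM) lay below the second (266 CPM). The highest class of CTRL 1 held 5716 CPM of S phase genes and 168 CPM of histone genes. Classes of other libraries at a near S phase level held more, with 782 CPM in BU 1 (S phase 5932 CPM), 1432 CPM in CTRL 2 (5424 CPM) and 874 CPM in BU 2 (4762 CPM). These values are set side by side without a test. The H2B sum was high in the lowest S class, at 31.4 (CTRL 1), 37.0 (BU 1), 92.2 (CTRL 2) and 171 CPM (BU 2), of which Hist1h2bp held 21.7, 9.70, 57.5 and 128 CPM. Without Hist1h2bp the lowest and the highest S class held 9.64 and 16.7 CPM of H2B in CTRL 1, 27.3 and 26.2 CPM in BU 1, 34.8 and 123 CPM in CTRL 2 and 43.3 and 130 CPM in BU 2, so that the highest class was above the lowest in all but BU 1.

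**Figure D5:**
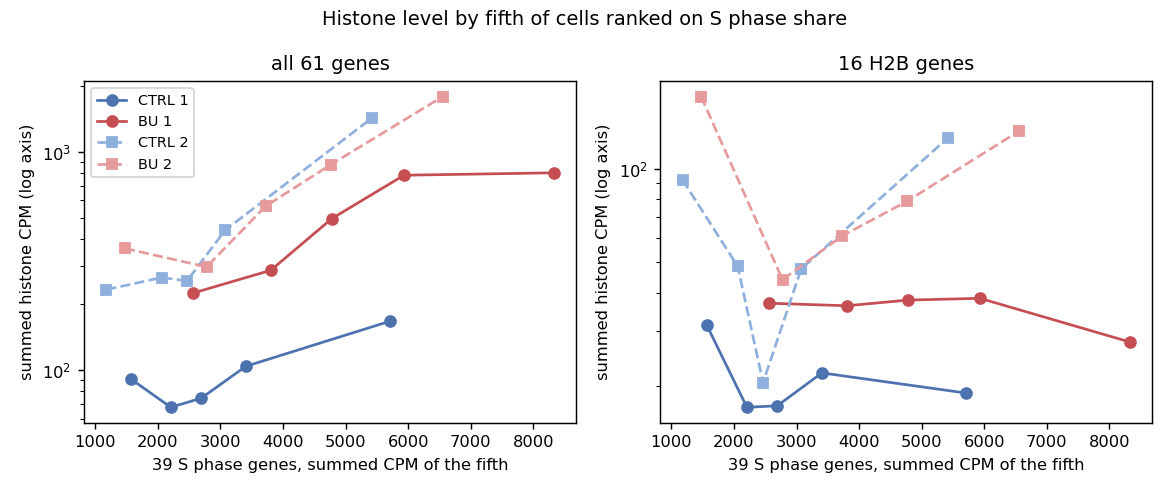
Summed level of all 61 genes (left) and of the 16 H2B genes (right) against the summed level of 39 S phase genes, in 5 equal classes of cells per library ranked by S phase share (CPM before TMM scaling, log y axes). The CTRL 1 line runs from 67.6 to 168 CPM on the left, under the other 3 lines over the same S phase range, and on the right the lowest S class of CTRL 2 and BU 2 is high, with 57.5 and 128 CPM from Hist1h2bp.

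By cell, the share of UMIs in histone genes and in S phase genes had a Pearson correlation of 0.217 in CTRL 1 (3101 cells), 0.364 in BU 1 (2008 cells), 0.564 in CTRL 2 (1120 cells) and 0.495 in BU 2 (1264 cells). These are descriptions over cells of 1 library, which share that library and differ in depth. At 5000 UMIs per cell they were 0.180, 0.325, 0.491 and 0.444. With G2M genes, at full depth, the clustered genes had 0.280 (CTRL 1), 0.179 (BU 1), 0.356 (CTRL 2) and 0.199 (BU 2). This was above the value with S phase genes in CTRL 1 and below it elsewhere. Replacement histones had 0.288, 0.252, 0.360 and 0.294 with S phase genes in the same order, above the clustered genes in CTRL 1 only. Whether the link in CTRL 1 is particular to S phase was not tested. For H2B the correlations with S phase genes were -0.037, -0.046, 0.129 and 0.011 at full depth. Without Hist1h2bp they were 0.012, -0.020, 0.318 and 0.198 in the same order. Either way H2B had the lowest Pearson value of the 5 types in each library over all cells. By Spearman correlation without Hist1h2bp, H2B stood above H3 in CTRL 1 (0.057 and 0.051) and CTRL 2 (0.414 and 0.356). It was lowest in BU 1 and BU 2. With spermatid, somatic and Kit-high cells left out, its Pearson value without Hist1h2bp stood above that of H4 in CTRL 2 (0.412 and 0.402) and BU 2 (0.301 and 0.285). It was lowest in CTRL 1 and BU 1.

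Whether busulfan changed the histone genes differently in S-high and S-low cells was tested as an interaction. None of 48 tested genes passed in edgeR, where 0.0% of all genes passed in either direction. At an unadjusted p under 0.05 stood 1 of the 48 and 250 of 16144 genes of any kind, and in DESeq2 0 and 108. In S-high cells the summed level of BU was 5.41 times that of CTRL in experiment 1 and 1.40 times in experiment 2, and in S-low cells it was 2.85 and 1.27 times. Hist1h1a in S-high cells was 24.8 times as high in BU 1 as in CTRL 1 and 1.52 times as high in BU 2 as in CTRL 2. The S phase list itself was 1.49 and 1.34 times as high in the S-high cells of BU. The classes are relative to each library. S-low cells of BU 1 reached an S phase share of 0.397%, above the lowest S-high share of CTRL 1 (0.324%) and CTRL 2 (0.289%). Of the S-high cells, 353 of 1033 (CTRL 1), 516 of 669 (BU 1), 91 of 373 (CTRL 2) and 269 of 421 (BU 2) lay outside the upper G2M class. BU and CTRL cells of a class can thus differ in cell cycle state.

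Gfra1+ cells were also compared with the Gfra1-negative cells of the same library. The summed level of Gfra1+ over Gfra1-negative cells was 0.963 in CTRL 1, 1.02 in BU 1, 1.55 in CTRL 2 and 0.916 in BU 2. Of 47 tested genes, 3 rose in Gfra1+ cells and 2 fell (edgeR with library block, adjusted p under 0.05), against 9.88% and 13.3% of all tested genes. Hist1h1b rose with a log2 fold change of 0.98 ± 0.15 (adjusted p = 0.018), Hist1h3e with 0.89 ± 0.21 (adjusted p = 0.035) and Hist1h1e with 0.70 ± 0.15 (adjusted p = 0.029). Hist1h1b stood at 1.42 and 0.895 CPM in Gfra1+ and Gfra1-negative cells of CTRL 1, 43.2 and 23.9 CPM in those of BU 1, 31.9 and 12.9 CPM in those of CTRL 2 and 39.2 and 22.4 CPM in those of BU 2, and was higher in Gfra1+ cells of each library. Hist1h2bp (-2.43 ± 0.51, adjusted p = 0.028) and Hist1h4a (-1.41 ± 0.30, adjusted p = 0.028) fell, and spermatid markers fell for 7 of 7 genes. Of the S phase list 15 of 39 genes rose. Without CTRL 1 the calls were 3 and 2 (all genes 6.5% and 11.5%) and without BU 1 they were 2 and 2 (5.49% and 14.5%). Without CTRL 2 no histone gene was called, nor any other gene (0.0%). At an unadjusted p under 0.05 stood 9 of 44 histone genes there and 4044 of 15058 genes of any kind. Without BU 2 none of the histone genes was called (all genes 2.21% and 1.75%). At an unadjusted p under 0.05 stood 8 of 38 there and 4325 of 14146 genes of any kind. Without the block 0 were called (all genes 0.869% and 5.08%), with 2 at an unadjusted p under 0.05 and 3269 of 15186 genes of any kind. Without the cells at shared barcodes 6 rose and 2 fell (12.7% and 16.5%).

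Levels are also given by the annotated end of the transcript, whose part in the low level of CTRL 1 was not tested. The 26 genes of the class that runs past the stem-loop, Hist1h2bp included, summed to 53.8 (CTRL 1), 247 (BU 1), 272 (CTRL 2) and 328 CPM (BU 2). The 15 genes that end by it summed to 33.7, 62.2, 102 and 243 CPM, and the 20 genes with no stem-loop found to 14.6, 209, 147 and 242 CPM. All 3 classes were lowest in CTRL 1, by the largest fold with no stem-loop found and by the smallest in the class that ends by it. Hist1h2ap held 19.8 of the 33.7 CPM of the class that ends by the stem-loop in CTRL 1. Membership of the class with no stem-loop found also depends on how far the annotation runs. The median ratio of BU to CTRL was 1.69, 1.73 and 2.43 in experiment 1 and 1.16, 1.40 and 1.29 in experiment 2 for the same 3 classes. In S-high cells 10 of 15 tested genes of the class of 26 rose and 3 fell. Of those that end by the stem-loop 4 of 9 rose, and of those with no stem-loop found 7 of 9 rose. Of all tested genes, 5.36% rose and 12.7% fell in this fit. The 3 genes that fell were all in the class of 26. Of these, Hist1h4a and Hist3h2a had a transcript that ran past the stem-loop, and Hist1h2bp had none.

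Genes that make and handle histone mRNA were given from fixed lists. Slbp, which binds the stem-loop, stood at 307 (CTRL 1), 506 (BU 1), 198 (CTRL 2) and 342 CPM (BU 2), Npat at 32.5, 88.9, 44.6 and 49.0 CPM and Casp8ap2, which takes part in histone mRNA 3′ end formation, at 77.5, 171, 171 and 166 CPM in the same order. Slbp was higher in BU within each experiment, and Npat and Casp8ap2 were lowest in CTRL 1. The 23 genes for histone mRNA processing and transcription summed to 4092, 5061, 3678 and 4543 CPM, so their sum did not set CTRL 1 apart. In S-high cells 9 of 22 tested genes of this list rose and 0 fell, among them Ccne1 (2.38 ± 0.25, adjusted p = 0.012), Slbp (1.34 ± 0.11, adjusted p = 0.010) and Npat (1.05 ± 0.19, adjusted p = 0.018). Histone chaperones, which carry new histones to DNA, rose for 6 of 15 genes and fell for 0, led by Asf1b (1.12 ± 0.15, adjusted p = 0.015).

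Replacement histones (15 genes measured) summed to 5847 (CTRL 1), 6381 (BU 1), 4820 (CTRL 2) and 6239 CPM (BU 2). Their sum spanned a factor of 1.32 between libraries, where that of the clustered genes spanned one of 7.96. Some single genes spanned more, such as H1f0 at 44.4 (CTRL 1), 89.6 (BU 1), 26.6 (CTRL 2) and 63.7 CPM (BU 2). H3f3a stood at 1478, 1119, 1328 and 1209 CPM in the same order, lower in BU within each experiment. In S-high cells 3 of 13 tested replacement histones rose (H1f0, H1fx and H3f3b) and 2 fell (H1fnt and Hils1, linker histones of spermatids). In the fit of BU against CTRL with the replicate block, H3f3b (0.86 ± 0.14, adjusted p = 0.041) and H1fx (1.30 ± 0.19, adjusted p = 0.034) rose, as did 1 of 15 chaperones (Nasp, 0.94 ± 0.17, adjusted p = 0.048), 2 of 39 S phase genes (Rrm2 and Uhrf1), 4 of 52 G2M genes and 0 of 23 genes for histone mRNA processing and transcription. H3f3b stood at 1433 (CTRL 1), 2470 (BU 1), 1176 (CTRL 2) and 2216 CPM (BU 2), with both BU libraries above both CTRL libraries.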

How the data were processed

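Sorted A_undiff cells were profiled by droplet 3′ single-cell RNA-seq in 2 CTRL and 2 BU libraries. The authors deposited filtered matrices of UMI counts per gene and cell, made with Cell Ranger (3.0.2 in the file headers). The submitters' processing notes name Seurat 3.2 and GRCm39, whereas the study's methods name mm10. The labels give kit version 2 for experiment 1 and 3.1 for experiment 2, whereas the study's methods name version 2 throughout. Coordinates here are those of GENCODE M21 and RefSeq on GRCm38, and the gene lists of the experiments differed (27998 and 31053 genes).

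Cells were kept when more than 1000 genes were detected and less than 20% of UMIs were mitochondrial. Doublets were marked with Scrublet (scanpy 1.11.5) at 0.8% per 1000 cells (77, 32, 10 and 13 cells in CTRL 1, BU 1, CTRL 2 and BU 2; 0, 9, 9 and 7 at its own threshold) and were left in, with their removal as an alternative. The clustered histone genes described here were joined between the experiments by gene identifier, except Hist1h2bm, which was joined by symbol. The identifier under which Hist1h2bm was counted can therefore differ between the experiments. Where a symbol had 2 identifiers in experiment 1 (Hist2h2bb) the one listed in experiment 2 was used. Gfra1+ cells had a natural log of 1 plus UMIs per 100000 above 2. UMIs were summed per library and class, filtered with filterByExpr, scaled by TMM and tested with edgeR 4.0.16 (quasi-likelihood, Benjamini-Hochberg over all genes tested, threshold 0.05) in R 4.3.3. Summed levels were compared by two-sided exact permutation over 6 assignments. Ratios within an experiment or library for genes and cell classes have 0.5 CPM added. The fits were tested on simulated data for each comparison. With an experiment effect added, 200 genes changed by 2 on the log2 scale were recovered at 96.5% with the replicate block and at 0% without it for BU against CTRL. With the block 6.76% of the calls were false. The simulated spread between libraries was smaller than that fitted to these data with the block (square root of the common dispersion 0.223). The recovery is therefore not a measure of the power of the fits reported here.

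The libraries with the same number were made and sequenced together per the labels, and so are paired. Their deviations from the group means correlated at 0.78, and the first principal component (70.4% of variance) separated the experiments. BU against CTRL is given without and with this replicate block. Alternatives were DESeq2 1.42.0, no TMM, no filter, thinning to 5000 UMIs, other cell filters and class limits, a required fold of 1.5 and leaving out each library. Leaving out the cells at shared barcodes, and Hist1h2bp from the H2B sum, was added after seeing the data. Named genes were the 2 of highest mean CPM per type, Hist1h1a, the 3 testis variants and, per comparison, the 5 largest called rises and falls. Genes named outside this rule are those whose counts or positions the text lists. The members and lists were chosen with earlier results of these data known.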

Additional observations from a re-analysis of the deposited data

Results flagged for a closer look

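Hist1h2bp and Hist1h4d were picked out because the BU and CTRL libraries lay in opposite order in the experiments. For Hist1h2bp the ratio of BU to CTRL was 0.464 in experiment 1 and 1.36 in experiment 2. For Hist1h4d it was 20.2 in experiment 1 and 0.858 in experiment 2. This order was not particular to them. Among others, the ratios in experiments 1 and 2 were 0.454 and 1.44 for Hist1h4a, 0.812 and 1.28 for Hist3h2a, 1.72 and 0.749 for Hist1h3e and 9.25 and 0.965 for Hist2h2ac. With 1 library per group in each experiment, the difference between the experiments was not tested for any of these genes.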

How the results depend on the processing

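Across alternatives, 412 values for single genes kept their direction and their side of the threshold, 60 lost and 19 gained a call, and 27 values, those of the H2B sum included, changed sign. Of the counts, summed levels and correlations, 243 stayed close to the value reported, 40 moved and 5 reversed. With the replicate block, the pairing of libraries by experiment, histone genes called higher in BU were 0, or 7 without the filter on low counts, 2 in DESeq2, 11 after thinning and 14 without the cells at shared barcodes, and 11 in Gfra1+ cells without the filter. Without the block 6 genes rose in S-high cells, and 0 rose and 0 fell in Gfra1+ cells. Between S-high and S-low cells, 6 rose with the cells of the upper G2M class left out, and 34 rose and 6 fell without the filter. In Gfra1+ against Gfra1-negative cells, 6 of 47 rose without the cells at shared barcodes, against 12.7% of all genes. In DESeq2 5 of 47 rose, against 2192 of 15186 genes of any kind. Without the filter 5 of 61 rose, against 1649 of 23151. With Gfra1+ set by any UMI after thinning 1 of 44 fell, against 1560 of 14681. In experiment 2, 13 rose with other cell types left out (all genes 8.28%) and 4 with experiment as the only term (6.01%). Under both 0 fell (3.14% and 0.622%). With doublets left out, at under 10% mitochondrial UMIs, in DESeq2 and without TMM 0 fell. Of genes of any kind, 787 of 17324, 788 of 17304, 1232 of 17355 and 664 of 17355 fell there. After thinning 2 of 37 fell, against 773 of 14422 genes of any kind. Without the filter 2 of 61 fell, against 1133 of 23152. The median log2 change of all genes between the experiments was 0.08, and -0.04 in DESeq2. With Hist1h2bp left out, the ratio of the H2B sum in S-high to S-low cells turned from below to above 1, to 1.86 (CTRL 1), 1.11 (BU 1), 2.56 (CTRL 2) and 2.25 (BU 2). The other causes were not tested.

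Leaving out 1 library gave 0 to 1 genes higher in BU, 0 to 24 higher and 0 to 3 lower in experiment 2, 0 to 24 higher and 0 to 4 lower in S-high cells, and 0 to 3 higher and 0 to 2 lower in Gfra1+ cells. The ratio of BU to CTRL then ran from 0.822 to 3.05 for H2B, 0.683 to 4.58 for H3 and 0.896 to 5.81 for H4, and the ratio of experiment 2 to 1 from 0.769 to 10.5 for H1. Log2 fold changes of BU over CTRL, none of them called, ran from -0.97 to 3.63 for Hist1h1t, -0.81 to 2.27 for Hist1h2ap, -0.41 to 5.88 for Hist1h2ba, -1.96 to 0.89 for Hist1h2bp, -0.34 to 0.99 for Hist1h3a, -0.21 to 3.82 for Hist1h3c and -0.34 to 4.67 for Hist1h4d, and from -0.33 to 3.94 for Hist1h1a in Gfra1+ cells. Hist1h2bp (0.14) also changed sign with the replicate block, to -0.31, and with the block to -0.31 without the filter, -0.34 without TMM, -0.42 in DESeq2, -0.23 with other cell types left out, -0.31 with doublets left out, -0.31 at under 10% mitochondrial UMIs, -0.60 after thinning and -0.53 without the cells at shared barcodes. Without the block it was -0.42 after thinning and -0.33 without those cells. Leaving out a library also changed the number of calls over all genes, downward in some fits and upward in others. In S-high cells 5.36% of all genes were called higher with all libraries, 0.0% without CTRL 2 and 7.26% without BU 1. It also leaves treatment and experiment unbalanced. For the experiments, the fits that left out a library had no term for condition, unlike the main fit. With all libraries, 2 per group limit the precision.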
